A study of Mus musculus with 4 samples.

Results

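Cytosolic ribosomal protein genes encode the proteins of the large (Rpl) and small (Rps) ribosomal subunits outside mitochondria. They were chosen by symbol alone: every gene of the deposited tables named Rpl or Rps with a number and at most a short paralog ending, together with Rplp0, Rplp1, Rplp2 and Rpsa, while copies named with ps were kept apart. The rule gave 87 of 46983 genes, 51 of the large and 36 of the small subunit, on 19 chromosomes. The annotation bears the name out for 83 of them, since Rps4l, Rps12l1, Rps3a2 and Rps3a3 are listed there as pseudogenes. Of the members, 8 carry a paralog ending (such as Rpl22l1), 4 lie on chromosome X, and 51 overlap another annotated gene, 35 of them on the same strand.

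The study profiled single nuclei from frozen mouse forebrain hemispheres with the 10x Genomics 3′ droplet assay. One library comes from sham-operated mice, and 3 come from mice taken on day 1, day 3 or day 7 of permanent middle cerebral artery occlusion (MCAO), a surgical block of the vessel that leaves a small infarct in the parietal cortex. All mice were male, of the strain C57Black/6 and 3 months old, and each library is a pool of 3 hemispheres, so lesioned and spared tissue are mixed in it. The labels name whole hemispheres for every group, while their treatment text names intact cortex as the control. The sham library held 353 nuclei with markers of striatal projection neurons.

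The labels of 2 libraries need a caution. By the nuclei that the study assigned to each time point, the latest one holds the most, whereas among the deposited libraries the one labelled day 3 does. Nuclei kept were 2114 in sham, 1017 in day 1, 3079 in the library labelled day 3 and 1568 in the library labelled day 7. The values below are therefore given for "the library labelled day 3" and "the library labelled day 7", and no order in time is read from them. With 1 library per group there is no replicate, and no test between groups is possible. Every interval is an exact 95% interval for counting error only.

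Ribosomal protein mRNAs are among the most abundant messages of a cell and are spliced, exported and translated quickly, so most of them lie in the cytoplasm. Many begin with a run of pyrimidines at the cap, the 5′ terminal oligopyrimidine (TOP) motif, through which growth signalling by mTOR sets their translation. A nucleus preparation holds few of them, while broken cytoplasm releases them into the fluid that fills droplets without a nucleus.

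The TOP motif sits at the start of transcription, so start-site windows are shown for members that the results turn on: 3 that were lower than sham in free RNA in every post-injury library (Rps6, Rpl15, Rpl27a), 2 that were higher in free RNA (Rps19, Rps2), and 3 at the ends of the order of nuclei against free RNA (Rpl37, Rpl5, Rpl7l1). Rpl23a, Rps29 and Rpl32 had no entry in the start-site table. Each window of 30 bases is RefSeq sequence of build GRCm38.p6, read 5′ to 3′ on the gene's strand from 10 bases before the start site, and capitals mark the longest run of C or T.
Rps6 (chr4:86857348-86857377, minus strand): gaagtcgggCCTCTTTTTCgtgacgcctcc
Rpl15 (chr14:18270967-18270996, minus strand): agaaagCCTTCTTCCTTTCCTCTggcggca
Rpl27a (chr7:109519185-109519214, plus strand): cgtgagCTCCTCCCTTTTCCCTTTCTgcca
Rps19 (chr7:24884582-24884611, plus strand): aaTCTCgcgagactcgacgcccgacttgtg
Rps2 (chr17:24720053-24720082, plus strand): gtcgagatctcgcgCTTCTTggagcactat
Rpl37 (chr15:5116603-5116632, plus strand): CCTgggcggaagcttatccacaggaagtgg
Rpl5 (chr5:107900518-107900547, plus strand): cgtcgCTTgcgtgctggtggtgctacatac
Rpl7l1 (chr17:46782637-46782666, minus strand): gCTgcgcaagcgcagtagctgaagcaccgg

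The longest run was 10 bases in Rps6, 17 in Rpl15, 20 in Rpl27a, 4 in Rps19, 6 in Rps2, 3 in Rpl37, 3 in Rpl5 and 2 in Rpl7l1. These windows belong to members picked by their values, so no relation of run length to direction is read from them. RefSeq start sites were found for 63 of the 87 members. Below, a gene counts where any of its annotated start sites has the feature, while the windows above show the first site listed. A run of at least 8 bases of C or T lay in this window in 24 of these 63 (38.1%) and in 13% of 27025 genes, with a median longest run of 7 against 5 bases. The letters CTTTC, on the gene's strand, were in the window of 23.8% of members and 4.43% of all genes. In the 300 bases from 250 before to 50 after the start, CCGGAAG on either strand, the core letters bound by ETS factors, was in 41.3% of members and 9.93% of all genes, and TATAAA, the TATA box letters, in 11.1% and 15.7%. Members thus had an annotated start site in pyrimidine-rich sequence more often than all genes did, but not every member had one.

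Of the 87 members, 79 had at least 1000 UMIs (counted molecules) in free RNA over the 4 libraries and 8 had under 100. In nuclei 5 had no UMI: Rpl13, Rpl24, Rpl10l, Rps12l1 and Rps3a3, and the same 5 were at 0 in free RNA. Rpl13 and Rpl24 encode core proteins of the large subunit. Rpl13 lies inside the gene Gm20388 on the same strand, which held between 623 and 913 CPM (a gene's UMIs scaled to a common total), and Rpl24 overlaps Gm28037, which held between 16 and 38 UMIs per library. Reads that touch 2 genes of a strand were not counted for either, so a 0 at these loci does not show that the mRNA was absent. Rpl10l is a testis paralog of Rpl10. Reads shared with any of the 271 ps copies could not be counted for a single gene, so the level of a member with many copies is uncertain.

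Free RNA was measured in droplets of 11 to 500 UMIs, which held 30558, 13754, 42550 and 28012 droplets in sham, day 1 and the libraries labelled day 3 and day 7. Ribosomal protein genes took 2.03% (2.02 to 2.04) of free UMIs in sham, 2.5% (2.49 to 2.52) in day 1, 2.15% (2.14 to 2.16) in the library labelled day 3 and 1.66% (1.65 to 1.67) in that labelled day 7. Over all nuclei the shares were 0.257% (0.254 to 0.259), 0.281% (0.278 to 0.284), 0.411% (0.408 to 0.413) and 0.262% (0.259 to 0.265). In every library the messages were thus several-fold scarcer in nuclei than in free RNA. The share was higher in free RNA by 7.89-fold (7.81 to 7.97) in sham and 8.89-fold (8.79 to 9) in day 1, and by 5.23-fold (5.20 to 5.27) and 6.35-fold (6.28 to 6.42) in the libraries labelled day 3 and day 7. Droplets without a nucleus held 6.10, 9.51, 7.63 and 5.22 ribosomal protein UMIs on average, and nuclei held 20.0, 35.9, 28.4 and 22.4.

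The share was lowest in the largest barcodes of every library, as the plot by droplet size shows, but it did not fall evenly. In sham the share was 2.03% in barcodes of 201 to 500 UMIs, 0.945% at 1001 to 2000, 0.586% at 2001 to 5000, 0.288% at 5001 to 10000 and 0.185% above. The other libraries were higher at 1001 to 2000 UMIs than at 201 to 500 UMIs. Day 1 held 3.90% against 2.51%, the library labelled day 3 2.52% against 2.15%, and that labelled day 7 1.74% against 1.67%. In these barcodes of 1001 to 2000 UMIs 3.25% of UMIs were mitochondrial in sham and 18.7%, 10.6% and 9.22% in the other libraries. Barcodes over 1000 UMIs that were not called nuclei numbered 75, 178, 575 and 158. Ribosomal protein genes took 2.94%, 6.18%, 4.19% and 4.41% of their UMIs, more than in free RNA of the same library, beside 22.1%, 32.9%, 21.2% and 28.7% mitochondrial UMIs. Their part in the differences between libraries was not tested.

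**Figure D1:**
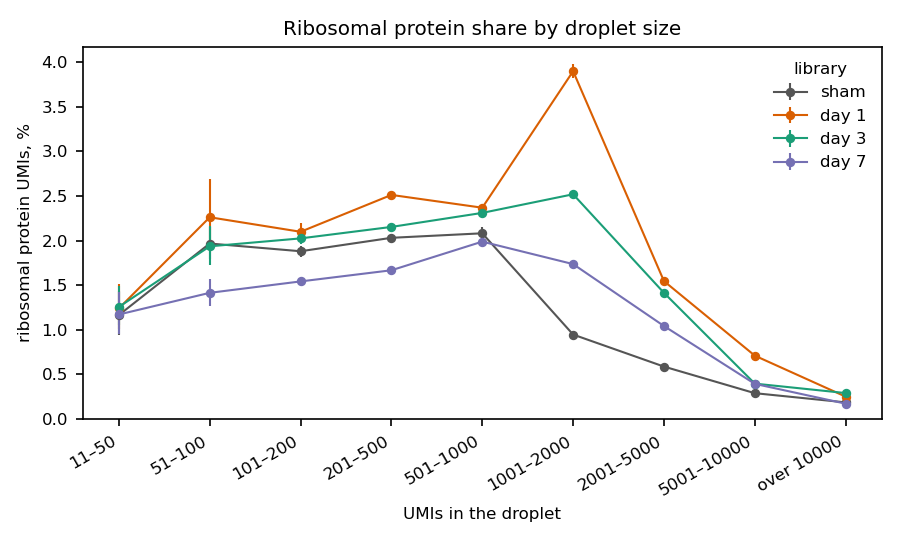
Share of UMIs from ribosomal protein genes (percent) by the total UMIs of the barcode, in bins of rising size, with exact 95% intervals, in each of the 4 libraries. The sham line is at 2.03% in the bin of 201 to 500 UMIs and falls to 0.185% in the largest barcodes.

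Almost every member was scarcer in nuclei. A member was counted where its ratio was past 1.5-fold with an interval that excludes 1, among members with at least 20 UMIs in both sums together. Nuclei were lower for 79 of 80 members in sham, 79 of 79 in day 1, 79 of 80 in the library labelled day 3 and 79 of 79 in that labelled day 7. Over all genes the same rule gave 32% in sham, 31.4% in day 1, 31.1% and 32.1% in the other two. No member was higher in nuclei by that rule, against 26.3%, 28.5%, 23.9% and 21.8% of all genes. Over the processing alternatives the summed ratio ran from 5.48 to 11-fold in sham, 5.53 to 12-fold in day 1, 3.46 to 6.85-fold in the library labelled day 3 and 4.39 to 8-fold in that labelled day 7. The median log2 ratio of members was −2.99, −3.17, −2.41 and −2.71, while that of all genes was 0.00, 0.03, −0.02 and −0.07. The single exception in sham and in the library labelled day 3 was Rpl3l.

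Among the 78 members with at least 50 UMIs in each sum of each library, the ratio of nuclei to free RNA, as the median of the 4 libraries, ran from 0.101 to 0.603. Rpl32 stood lowest at 0.101, with 353, 406, 395 and 279 CPM in free RNA and 28.9, 35.5, 62.5 and 32.2 CPM in nuclei. Rpl37, a zinc-finger protein of the large subunit, followed at 0.109, and Rpl39 and Rpl38 lay at 0.112 and 0.113. Rpl38 is known for its role in translation of Hox mRNAs in the embryo. The ranges of the low members over libraries overlapped (0.0817 to 0.158 in Rpl32, 0.0725 to 0.158 in Rpl39), so their order among themselves was not fixed. Free RNA is not cytoplasm alone, since Malat1, a nuclear-retained RNA, had 64697 CPM there and 66286 CPM in nuclei in sham, and nuclei in turn carry free RNA.

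At the other end stood Rpl7l1, a paralog of Rpl7 with a role in assembling the large subunit, with 37.6, 32.9, 32.0 and 31.4 CPM in free RNA and 20.5, 21.1, 19.3 and 18.9 CPM in nuclei. Its median ratio was 0.603, and its range over libraries (0.544 to 0.642) did not overlap that of Rpl5. Rpl5, which carries the 5S RNA into the ribosome and can bind Mdm2, was next at 0.305 (0.258 to 0.308). Rps2 (0.217), Rps27 (0.214) and Rpl27a (0.201) completed the upper end. Members such as Rpl7l1 and Rpl5 thus kept a larger part of their level in nuclei. Across the 78 members, which share libraries and depth, the ratio had a Spearman rho of −0.06 with intron length and −0.34 with the free-RNA level, both given as descriptions. The free-RNA level is also the denominator of the ratio, so a negative rho with it is partly built in.

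**Figure D2:**
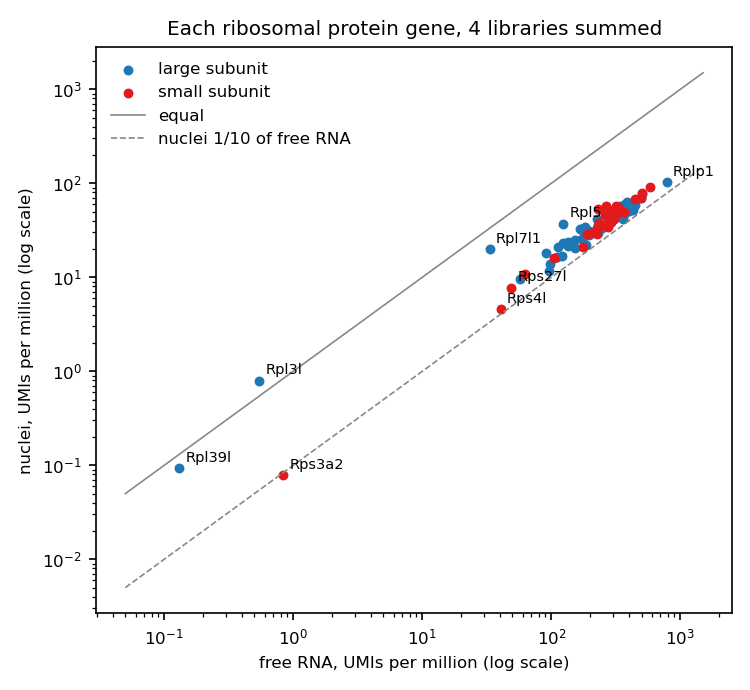
Level of each member in free RNA (x axis, CPM, log scale) and in nuclei (y axis, CPM, log scale) over the 4 libraries together, coloured by subunit, with the line of equal levels and a dashed line at a lower fixed ratio. Rpl3l lies above the line of equal levels, Rpl39l (6 UMIs in nuclei) and Rpl7l1 lie closest below it, and most members lie near the dashed line.

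Among the members with the most UMIs in nuclei were Rplp1, Rps21, Rpl9, Rps24, Rpl41, Rps14, Rpl21, Rpl8 and Rpl23. The 3′ assay tags a transcript near its end, so these are counts of tags and were not scaled by length. Rplp1, an acidic protein of the stalk that recruits elongation factors, had 69.9, 78.5, 154 and 84.5 CPM in nuclei and 717, 960, 850.5 and 633 CPM in free RNA. Rps21 had 78.2, 79.8, 117 and 82.3 CPM in nuclei, and Rpl41, a very short basic peptide, 45.0, 62.6, 99.7 and 59.8 CPM. Each of these was highest in nuclei of the library labelled day 3. The order of members in free RNA was close between libraries, with Spearman rho from 0.92 to 0.97 over 82 members in the 6 pairs. Small-subunit members made up between 42.6% and 44.2% of ribosomal protein UMIs in free RNA and between 43.2% and 45.5% over all nuclei.

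Most paralogs had fewer UMIs than the member each resembles, and Rpl22l1 and Rpl7l1 stood apart from that. Rpl22l1 had 28.3 CPM in nuclei and 196 CPM in free RNA over the 4 libraries together, beside 32.5 and 167 CPM for Rpl22, whose product binds RNA and which has roles in T-cell development. Rps27l, a known p53 target, had 7.78 and 49.1 CPM beside 52.8 and 229 CPM for Rps27. Rps4l had 4.6 and 40.5 CPM beside 33.4 and 230 CPM for the X-linked Rps4x. In nuclei Rpl7l1 had 19.9 CPM beside 16.4 CPM for Rpl7, and in free RNA 33.3 beside 110 CPM. Rpl3l, known from heart and skeletal muscle, had 20, 7, 16 and 8 UMIs in nuclei and 6, 2, 10 and 3 in free RNA. Rpl39l, a paralog best known from testis, had 1, 2, 0 and 3 UMIs in nuclei and 1, 1, 2 and 1 in free RNA, so no difference could be seen at this depth.

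Nuclei were placed in classes by clustering on genes other than ribosomal protein genes and naming clusters from marker genes. A class name followed by "-like" means that its markers led the cluster. In the glutamatergic-neuron-like class (499, 253, 802 and 382 nuclei), ribosomal protein genes took 0.163%, 0.189%, 0.192% and 0.139% of UMIs in sham, day 1 and the libraries labelled day 3 and day 7. In the striatal-projection-neuron-like class (353, 132, 382 and 201 nuclei) the shares were 0.186%, 0.209%, 0.248% and 0.176%. The GABAergic-interneuron-like class held 0.199%, 0.290%, 0.238% and 0.168%. Neuronal classes were the lowest of all, and free RNA exceeded the glutamatergic-like share by 12.4, 13.3, 11.2 and 12-fold.

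Glial classes held higher shares than the neuronal ones in every library. The oligodendrocyte-like class (322, 161, 432 and 255 nuclei) held 0.481%, 0.543%, 0.661% and 0.418%, and the microglia-like class (88, 44, 187 and 95 nuclei) 0.523%, 0.594%, 0.786% and 0.440%. The astrocyte-like class (142, 56, 212 and 70 nuclei) held 0.452%, 0.405%, 0.755% and 0.593%. Per nucleus the order was another one: astrocyte-like nuclei held 19.5, 27.4, 28.2 and 36.3 ribosomal protein UMIs, glutamatergic-like nuclei 18.7, 34.7, 19.4 and 17.5, oligodendrocyte-like nuclei 11.8, 20.0, 14.9 and 11.7, and microglia-like nuclei 12.4, 32.4, 18.1 and 12.3. Neuronal nuclei were larger, with a median of 10276 UMIs in sham against 2025 in oligodendrocyte-like nuclei. A droplet's share of free RNA, if every nucleus carried the median free droplet of its library (304, 405, 359 and 317 UMIs), would account for 6.16, 10.1, 7.72 and 5.27 ribosomal protein UMIs per nucleus. In oligodendrocyte-like nuclei this would leave 5.63, 9.90, 7.19 and 6.38.

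**Figure D3:**
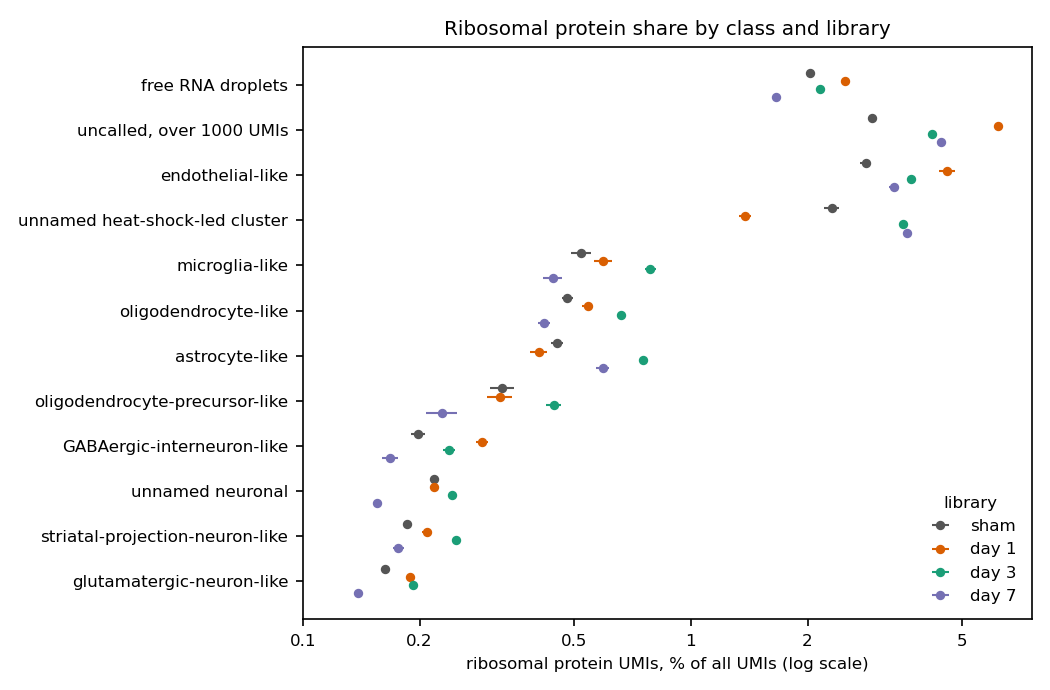
Share of UMIs from ribosomal protein genes (percent, log axis) in free RNA, uncalled droplets over 1000 UMIs and each class drawn, 1 point per library with its exact 95% interval. The neuronal classes lie lowest, near 0.163% in sham, and the endothelial-like class lies above free RNA in all 4 libraries.

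Endothelial-like nuclei were the named class with more ribosomal protein RNA than free RNA. Flt1, Slco1a4 and Cldn5, markers of brain endothelium, led this cluster, and the mural marker Rgs5 was also among its leading genes. The 39, 6, 72 and 21 nuclei held 2.82% (2.74 to 2.91), 4.58% (4.35 to 4.81), 3.70% (3.64 to 3.76) and 3.34% (3.24 to 3.43). Relative to free RNA of the same library this was 1.39, 1.83, 1.72 and 2.01-fold, and 1.43, 1.90, 1.77 and 2.06-fold after the equal free part was taken off every nucleus. Such nuclei held 105, 248, 220 and 206 ribosomal protein UMIs each. The level was spread over nuclei: 51.3%, 100%, 76.4% and 76.2% of them were at or above the free share of their library. In day 1 a single nucleus of the 6 held 43.6% of the class's ribosomal protein UMIs, and without the nucleus with the most the ratio to free RNA was 1.22, 1.59, 1.58 and 1.93-fold. Mitochondrial UMIs made up 4.43%, 4.83%, 4.63% and 4.81% in this class, against 0.459% to 0.738% over all nuclei, and their part in the result was not tested. Other RNAs of the class differed from free RNA too. Summed mitochondrially encoded mRNAs were 5.85, 2.34, 4.11 and 3.48-fold and elongation and other TOP mRNAs 1.88, 2.34, 2.07 and 2.81-fold above free RNA, while nuclear-retained RNAs were at 0.623, 0.265, 0.516 and 0.527 of it, with 7, 6, 7 and 8 of 10 lower. The higher level was therefore not particular to ribosomal protein genes.

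Member by member, the endothelial-like class was past 1.5-fold higher than free RNA for 26 of 79 members in sham (15.1% of all genes), 42 of 79 in day 1 (8.86%), 57 of 79 in the library labelled day 3 (19.8%) and 65 of 79 in that labelled day 7 (15.1%). The median log2 ratio of members was 0.41, 0.85, 0.76 and 0.97, against 0.15, 0.61, 0.05 and 0.20 over all genes tested. Past 2-fold the counts were 6, 29, 16 and 34 of 79, beside 13.5%, 8.63%, 15.1% and 13.6% of all genes, so that in sham the members' share was below that of all genes. With TMM scaling the day 1 ratio of the sum to free RNA was 1.07-fold. Rpl5 lay above the median member in every library, with 144, 492, 252 and 409 CPM in the class and 102, 170, 124 and 119 CPM in free RNA. Rpl22l1 ran the other way, with 89.3, 30.7, 91.1 and 100.2 CPM in the class against 236, 270.4, 176 and 144 CPM in free RNA. It was below free RNA at 0.379 (0.201 to 0.649) in sham, 0.114 (0.00288 to 0.634) in day 1 and 0.518 (0.367 to 0.710) in the library labelled day 3, while in that labelled day 7 the interval of its 0.695 (0.369 to 1.19) included 1.

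A cluster of 149 nuclei led by the heat-shock genes Hspa1a and Hspa1b could not be named, because astrocyte and choroid plexus markers scored too close to each other by a limit set after the clusters were seen. It made up 0.804%, 2.46%, 2.7% and 1.53% of nuclei and held 2.31%, 1.38%, 3.53% and 3.61% ribosomal protein UMIs, beside 6.97%, 2.89%, 9.83% and 9.19% mitochondrial UMIs. Neuronal clusters without a name made up 19.9%, 21.4%, 18.7% and 22.6% of nuclei and held 0.218%, 0.218%, 0.242% and 0.156%. Oligodendrocyte-precursor-like nuclei held 0.327%, 0.322%, 0.443% and 0.228%. Among scarcer classes, ependymal-like nuclei held 0.500%, 0.628%, 0.701% and 0.405%, and mural-like nuclei 0.719%, 0.562%, 1.05% and 0.329% from 12, 8, 20 and 2 nuclei.

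The next question was whether the share differed between the sham library and each post-injury library. Free RNA stood 1.23-fold (1.23 to 1.24) above sham in day 1, 1.06-fold (1.05 to 1.07) above in the library labelled day 3 and at 0.820 (0.815 to 0.826) of sham in that labelled day 7. The first 2 of these turn below 1 in droplets of 11 to 100 UMIs, where the shares were 1.78%, 1.66%, 1.67% and 1.35%. The free-RNA share also moved beside mitochondrial UMIs, which were 0.741%, 2.11%, 1.26% and 1.45% of free RNA, and that part was not tested. Ratios of nuclei to sham followed the same directions in glutamatergic-like, striatal-like, oligodendrocyte-like and microglia-like nuclei, but not in astrocyte-like or endothelial-like nuclei. Other classes were mixed. The plot of ratios to sham shows the main classes 1 by 1.

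In the day 1 library the sum of ribosomal protein UMIs was above sham in the glutamatergic-like (1.16-fold, 1.12 to 1.19), striatal-like (1.12, 1.08 to 1.17), oligodendrocyte-like (1.13, 1.08 to 1.18) and microglia-like (1.14, 1.05 to 1.23) classes. It was below sham in the astrocyte-like class (0.897, 0.842 to 0.955). The astrocyte-like ratio turns to 1.16 where the heat-shock cluster is added to the class. Without the nucleus with the most ribosomal protein UMIs the microglia-like ratio was 1.00, with 15.1% of the day 1 sum in a single nucleus. With each nucleus thinned to 1000 UMIs, the day 1 ratio was 1.01 in oligodendrocyte-like and 1.13 in striatal-like nuclei, and both intervals included 1. In the library labelled day 3 all these classes were above sham: 1.18 (1.15 to 1.21) in glutamatergic-like, 1.33 (1.29 to 1.38) in striatal-like, 1.37 (1.32 to 1.43) in oligodendrocyte-like, 1.67 (1.60 to 1.75; 1.40 to 2.54 over the processing alternatives) in astrocyte-like and 1.50 (1.40 to 1.61) in microglia-like nuclei. In the library labelled day 7 the ratios were 0.852 (0.826 to 0.880), 0.948 (0.910 to 0.988), 0.869 (0.828 to 0.912), 1.31 (1.24 to 1.39) and 0.842 (0.775 to 0.916), with the classes ordered as before. The 3 ratios of a class share the sham library. Among the other classes, endothelial-like nuclei were above sham in all 3 libraries, at 1.62 (1.53 to 1.72), 1.31 (1.27 to 1.36) and 1.18 (1.13 to 1.23). Fibroblast-like nuclei, 14, 3, 29 and 16 in number, were at 4.32 (3.70 to 5.05), 2.04 (1.77 to 2.36) and 1.76 (1.50 to 2.07), with 75.1% of the sum in 1 nucleus in day 1 and 40.6% in the library labelled day 7, where the median nucleus was at 0.441% against 0.422% in sham. The heat-shock cluster was at 0.598, 1.53 and 1.56. GABAergic-interneuron-like nuclei were at 1.46, 1.20 and 0.846. In day 1 a single nucleus held 14.4% of that class's sum, the median was 0.224% against 0.204% in sham, and mitochondrial UMIs were 0.643% against 0.134%. Ependymal-like nuclei were at 1.26, 1.40 and 0.811, with 33.9% of the day 1 sum in 1 of 7 nuclei and a day 1 median of 0.582%, below the 0.629% of sham. The ratios of unnamed neuronal nuclei were 0.999, 1.11 and 0.714, those of oligodendrocyte-precursor-like nuclei 0.985, 1.36 and 0.697, and those of mural-like nuclei 0.783, 1.46 and 0.458. Mitochondrial UMIs were also a larger share in the library labelled day 3 than in sham in the main classes: 0.203% against 0.144% in glutamatergic-like, 0.364% against 0.174% in striatal-like, 1.04% against 0.716% in oligodendrocyte-like and 1.62% against 0.652% in microglia-like nuclei, and their part was not tested.

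**Figure D4:**
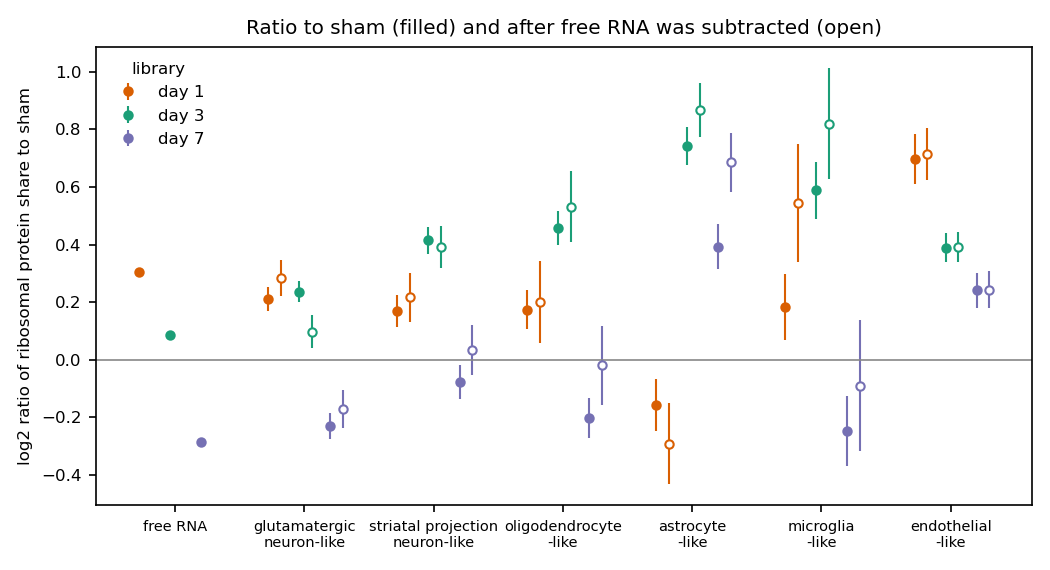
Log2 ratio of the ribosomal protein share to sham in free RNA and each main class for the 3 post-injury libraries, with exact 95% intervals. Filled points are as counted and open points follow removal of an equal free part from every nucleus, and all classes lie above 0 in the library labelled day 3.

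Taking the equal free part off every nucleus left the library labelled day 3 above sham in each of these classes, at 1.07, 1.31, 1.45, 1.83 and 1.76 in the order above. In the library labelled day 7 it brought the striatal-like ratio to 1.02 and the oligodendrocyte-like ratio to 0.986. Medians over single astrocyte-like nuclei ran against the sums in 2 libraries: they were 0.424% in sham, 0.483% in day 1, 0.510% in the library labelled day 3 and 0.342% in that labelled day 7, so that day 1 lay above sham and the library labelled day 7 below it, with 13.9% of the sum in 1 nucleus in the library labelled day 7. Mitochondrial UMIs in that class were 1.18%, 0.826%, 2.04% and 2.55%, the same order as its ribosomal protein shares apart from the last 2, and their part was not tested.

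In free RNA single members ran both ways, from 0.231 of sham to 2.35-fold above it. In day 1, 10 of 79 members were past 1.5-fold higher than sham (4.1% of all genes) and 3 lower (3.66%). In the library labelled day 3 it was 2 of 80 higher (4.55%) and 3 lower (3.06%), and in that labelled day 7, 1 of 79 higher (5.3%) and 12 lower (3.48%). Set against all genes, members were called more often as higher in day 1 and as lower in the library labelled day 7, while the other counts of 1 to 3 members lay near or below the background. The median log2 ratio was 0.24, 0.09 and −0.27 for members and −0.02, −0.03 and 0.00 for all genes.

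The same 3 members were lowest against sham in each post-injury library. Rps6, the small-subunit protein phosphorylated by S6 kinases, had 102, 66.9, 60.1 and 23.6 CPM of free RNA in sham, day 1 and the libraries labelled day 3 and day 7, and was at 0.655 (0.578 to 0.742), 0.589 (0.537 to 0.645) and 0.231 (0.198 to 0.269) of sham. Rpl15 had 106, 59.3, 44.5 and 26.9 CPM and stood at 0.559 (0.490 to 0.636), 0.420 (0.380 to 0.463) and 0.254 (0.219 to 0.293). Rpl27a had 143, 95.1, 80.4 and 52.9 CPM, and its ratios were 0.665 (0.598 to 0.738), 0.562 (0.519 to 0.608) and 0.370 (0.332 to 0.412). For all 3 the sham library was the highest and the library labelled day 7 the lowest, unlike the sum over members, which was highest in day 1.

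Other members were above sham in all 3 post-injury libraries. Rpl23a, near the exit tunnel of the large subunit, had 60.3, 142, 106 and 96.9 CPM, at 2.35 (2.1 to 2.63), 1.76 (1.59 to 1.94) and 1.61 (1.44 to 1.79) times sham. Rps29, a zinc-binding protein of the small subunit, had 195, 397, 271 and 287 CPM, with ratios of 2.03 (1.91 to 2.17) in day 1 and 1.47 (1.38 to 1.56) in the library labelled day 7. Rps19, mutated in Diamond-Blackfan anaemia, had 135, 274, 194 and 185 CPM and stood at 2.03 (1.88 to 2.19), 1.43 (1.34 to 1.53) and 1.37 (1.27 to 1.47). Rps2 had 195, 352, 297 and 242 CPM, at 1.52 (1.44 to 1.61) in the library labelled day 3. These 4 were lowest in sham and highest in day 1, so the sham library set them apart from the 3 above.

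**Figure D5:**
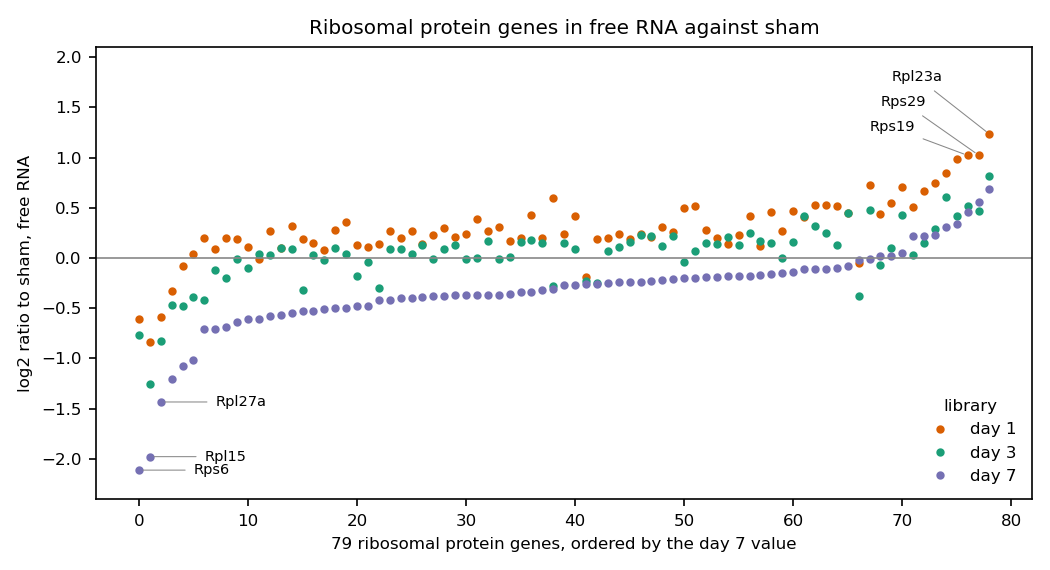
Log2 ratio to sham in free RNA for each tested member, ordered by its value in the library labelled day 7, 1 colour per library. Rps6, Rpl15 and Rpl27a stand at the low end in each library, and Rpl23a at the high end.

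The glutamatergic-like class repeated much of this set at far lower counts. Rpl15 had 11, 7.52, 4.81 and 4.99 CPM there, from 63, 35, 39 and 24 UMIs, and was at 0.436 (0.285 to 0.660) and 0.452 (0.27 to 0.734) of sham in the libraries labelled day 3 and day 7. Rps29 had 8.58, 21.1, 18.9 and 15.4 CPM, at 2.45 (1.72 to 3.53), 2.20 (1.58 to 3.10) and 1.79 (1.23 to 2.63). Rpl23a had 4.20, 7.73, 9.25 and 5.82 CPM, with 2.20 (1.37 to 3.64) in the library labelled day 3. Rps27 was at 1.84 (1.50 to 2.27) in day 1 and Rps4x at 1.62 (1.22 to 2.16) in the library labelled day 3. The low end also held Rpl6, at 0.760 (0.616 to 0.938) in the library labelled day 3, and Rps25, at 0.452 (0.279 to 0.713) in that labelled day 7. Free RNA is part of every nucleus's counts, so these values are not independent of those in free RNA.

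By counts, 5 of 79 members were past 1.5-fold higher than sham in glutamatergic-like nuclei of day 1 (5.6% of all genes) and 0 lower (3.07%). The library labelled day 3 had 8 of 79 higher (2.47%) and 2 lower (3.1%), and that labelled day 7 had 1 of 78 higher (4.24%) and 13 lower (4.37%). The striatal-like class had 3 of 78 higher (5.33%) and 1 lower (1.98%) in day 1. It had 22 of 78 higher (2.45%) and 0 lower (3.2%) in the library labelled day 3, and 1 of 77 higher (2.76%) and 8 lower (3.89%) in that labelled day 7. By this rule members of both neuronal classes leaned higher in the library labelled day 3 and lower in that labelled day 7, relative to all genes. Past 2-fold, 2 of 79 and 5 of 78 were higher in the former (1.11% and 1.22% of all genes). In the latter 3 of 78 and 2 of 77 were lower (1.63% in each class). The striatal-like sum of the library labelled day 7 turned to 1.02 of sham with the equal free part taken off.

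In the striatal-like class Rps19 had 9.09, 22.3, 21.8 and 14 CPM and was at 2.46 (1.52 to 4.02) in day 1 and 2.40 (1.55 to 3.78) in the library labelled day 3. The order of members in this class is given for those with at least 50 UMIs in both sums together. Rps16 (2.29, 1.63 to 3.27) and Rps18 (2.28, 1.72 to 3.04), both of the head of the small subunit, followed in that library. Rps12 (1.56, 1.15 to 2.13) and Rps18 (1.56, 1.10 to 2.19) were also higher in day 1, when Rpl28 was at 0.671 (0.462 to 0.960). The interval of Rps25, the lowest in day 1 at 0.635 (0.365 to 1.07), included 1, as did those of Rps20 at 0.715, and of Rps6 at 0.614 and Rps28 at 0.804 in the library labelled day 3. Rpl35 was lowest in the library labelled day 7 at 0.395 (0.191 to 0.752), beside Rpl7 at 0.525 (0.273 to 0.956) and Rpl27a at 0.548 (0.318 to 0.911), while Rps29 (1.68, 1.09 to 2.59) and Rpl38 (1.43, 1.03 to 1.98) were higher.

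Oligodendrocyte-like nuclei also had more members higher than lower in the library labelled day 3 and more lower than higher in that labelled day 7. In day 1, 7 of 78 members were higher (4.76%) and 1 lower (5.45%), in the library labelled day 3, 23 of 78 higher (3.83%) and 2 lower (3.18%), and in that labelled day 7, 2 of 76 higher (3.35%) and 12 lower (6%). Rps19 had 24.1, 43.7, 68.7 and 53.5 CPM, at 2.85 (1.69 to 5.03) and 2.22 (1.25 to 4.08) in the libraries labelled day 3 and day 7. Rps10, whose locus overlaps a read-through transcript, was at 2.09 (1.25 to 3.56), 2.71 (1.73 to 4.37) and 2.05 (1.25 to 3.44). Rpl29 (2.76, 1.43 to 5.78) was also high in the library labelled day 3, and Rps26 (1.79, 1.17 to 2.77) and Rps7 (1.79, 1.01 to 3.21) in day 1. Rpl6 stood at 0.590 (0.349 to 0.971) in day 1 and 0.555 (0.336 to 0.897) in the library labelled day 7, in which Rps23 was at 0.456 (0.268 to 0.753) and the stalk protein Rplp0 at 0.540 (0.290 to 0.973). Rps19 and Rps10 were thus above sham and Rpl6 below it in the same class.

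Astrocyte-like nuclei had the largest number of members above sham. There, 46 of 77 were higher in the library labelled day 3 (4.04% of all genes) and 0 lower (5.95%). In that labelled day 7, 13 of 73 were higher (4.28%) and 0 lower (6.23%), whereas in day 1, 1 of 74 was higher (4.46%) and 6 lower (6.21%). Medians over single nuclei ran the other way in both, at 0.342% and 0.483% against 0.424% in sham. In the library labelled day 7, 1 nucleus held 13.9% of the sum, and thinned to 1000 UMIs per nucleus the summed ratio to sham was 1.01. Member counts without that nucleus were not made. The median log2 ratio of members was −0.13, 0.73 and 0.43, against −0.07, −0.03 and −0.07 over all genes. Rps19 had 22.8 CPM in sham and 84.6 CPM in the library labelled day 3, from 14 and 67 UMIs, a ratio of 3.71 (2.06 to 7.14). Among members with at least 50 UMIs in both sums together, Rpl7a (3.25, 1.61 to 7.27) and Rpl4 (2.65, 1.36 to 5.53) came next. Rpl38 (0.972, 0.662 to 1.43) and Rpl10 (1.02, 0.655 to 1.60) were the lowest of these, so even their low end lay near 1. In day 1 Rps21 was at 0.495 (0.325 to 0.737), Rpl17 at 0.514 (0.252 to 0.978) and Rpsa, also known as the laminin receptor, at 0.531 (0.303 to 0.892). Under the 50-UMI limit, Rps29 (2.51, 1.48 to 4.33) and Rpl13a (1.81, 1.09 to 3.03) led the reported members in the library labelled day 7.

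Microglia-like nuclei gave fewer UMIs, so fewer members could be read. In day 1, 4 of 64 members were higher (8.15%) and 0 lower (7.84%), in the library labelled day 3, 16 of 75 higher (6.65%) and 0 lower (4.96%), and in that labelled day 7, 0 of 57 higher (5.77%) and 1 lower (4.8%). Day 3 as labelled was again the library in which members lay furthest above all genes, with a median log2 ratio of 0.53 against 0.03. Rpl13a, known for silencing inflammatory mRNAs in myeloid cells, was at 3.19 (1.57 to 7.33), from 9 UMIs in sham and 59 in the library labelled day 3. Rps26 (2.40, 1.27 to 4.90) and Rps15 (2.33, 1.30 to 4.49) followed among members with at least 50 UMIs in both sums together. Under the same limit, members with the most extreme ratios in the other 2 libraries had intervals that included 1. They ran from Rps9 at 1.62 (0.945 to 2.86) in day 1 to Rpl3 at 0.617 (0.350 to 1.07) in the library labelled day 7.

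Most other genes of the translation machinery were also lower in nuclei than in free RNA, to different degrees. Over all genes, 31.1% to 32.1% were past 1.5-fold lower. Of 12 elongation factors and other TOP mRNAs, 12, 10, 10 and 10 were past 1.5-fold lower in nuclei than in free RNA and 0 higher, and their sum was 4.57, 4.66, 3.68 and 3.64-fold lower. Tpt1, a TOP message by which the motif is often studied, had 442, 479, 412 and 275 CPM in free RNA and 50.1, 47.8, 74.2 and 47.1 CPM in nuclei. Of 30 initiation factors between 23 and 24 were lower and 1, 1, 0 and 0 higher. Eif4g3, the most abundant of them in nuclei, had 291, 303, 305 and 304 CPM there and 192, 181, 209 and 218 CPM in free RNA. The list's sum was 2.60, 2.57, 2.29 and 2.25-fold lower. Fau, a fusion gene for a small-subunit protein outside the symbol rule, had 485, 551, 532 and 376 CPM in free RNA and 47.8, 51, 91.8 and 56.0 CPM in nuclei. The list of ribosome proteins outside the symbol rule was 10.5, 10.8, 5.88 and 6.98-fold lower in sum. Only Fau and Rpl36al on it had enough UMIs to be tested. Rpl36al had 124 CPM in free RNA of sham, so Fau made up most of the sum. The members' own sum, 7.89, 8.89, 5.23 and 6.35-fold lower, lay between this list and the elongation list.

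Lists of nuclear and mitochondrial genes give the range on either side. Their counts of lower genes stand beside the 31.1% to 32.1% of all genes that were lower by the same rule. Of 77 mitochondrial ribosomal protein genes, which are encoded in the nucleus and translated in the cytoplasm, 61, 63, 59 and 60 of 74 tested were lower in nuclei, and their sum was 3.02, 3.05, 2.7 and 2.64-fold lower. Of 26 ribosome biogenesis genes 16, 18, 17 and 15 were lower and 1, 2, 2 and 1 higher, with sums 2.01, 1.87, 1.88 and 1.81-fold lower. Gnl3, which encodes nucleostemin, had 57.4, 62.9, 45.8 and 47.2 CPM in nuclei against 37.9, 42.3, 34.4 and 34.9 in free RNA. Host genes of small nucleolar RNAs were lower for 9 of 9, 8 of 8, 7 of 8 and 8 of 8. Of 10 nuclear-retained RNAs 7, 8, 8 and 7 were higher in nuclei and 0 lower, beside the 21.8% to 28.5% of all genes that were higher. Mitochondrially encoded mRNAs were lower for 4 of 8, 8 of 8, 5 of 7 and 8 of 8, and haemoglobin genes, which mark blood, for 1 of 1, 4 of 4, 4 of 4 and 3 of 3. Against sham, free haemoglobin RNA was 5.49, 6.49 and 2.96-fold higher in the 3 post-injury libraries, next to 1.23, 1.06 and 0.820 for the ribosomal protein genes.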

How the data were processed

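Per the labels and the study's methods, the authors mapped reads with STAR 2.7.3a to GRCm38 (mm10), counted exonic and intronic reads per gene (GENCODE vM8), collapsed UMIs and discarded UMIs of several genes. What they deposited are UMI counts of every barcode, before the background correction that the study applied later. Library totals were 28195551, 23285489, 42963698 and 25033355 UMIs in sham, day 1, day 3 and day 7, and 0 columns of other samples were left unused.

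From these counts, nuclei were called with a re-implementation of emptyDrops (lower limit 1000 UMIs, 10000 draws, FDR 0.001), and 145 doublets were removed by Scrublet score at the share expected from loading (scanpy 1.11.5), since its automatic threshold marked only 36 of 7923 nuclei. Of 7778 nuclei kept, at most 3 barcodes were shared by a pair of libraries. Nuclei were clustered with Seurat 5.3.0 and sctransform 0.4.2 in R 4.3.3 (30 principal components, resolution 0.8), leaving out ribosomal protein genes, their ps copies and mitochondrial and listed genes, and named from marker lists. A name was given only where its score led the next class by 0.6, a limit set after the clusters were seen. Shares have exact Clopper-Pearson intervals, levels exact Poisson and ratios exact conditional binomial intervals at 95% (Python 3.11.15, numpy 2.4.6, scipy 1.17.1, pandas 2.3.3). Intervals were tested on simulated data. edgeR 4.0.16 gave TMM factors for an alternative only. A count of 0 allows up to 3 counts.

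Members and lists were chosen with earlier results of these data known. Members named are the 10 with the most UMIs in nuclei, the 3 highest and 3 lowest ratios to sham per main class and library among those with at least 50 UMIs in both sums, the 5 highest and 5 lowest ratios of nuclei to free RNA, paralogs, and members at 0. Genes were placed with an annotation of the same build, which held all 87 members. A few members that these rules name are not reported here.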

Additional observations from a re-analysis of the deposited data

Results flagged for a closer look

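By summed UMIs, the astrocyte-like class went against the other 4 main classes in 2 libraries. In day 1 its ribosomal protein ratio to sham was 0.897 (0.842 to 0.955), while those of the other 4 main classes lay between 1.12 and 1.16. In the library labelled day 7 it was 1.31 (1.24 to 1.39), while the others lay between 0.842 and 0.948. Both stand out because this class moved one way and the other main classes the opposite way, each from a single library, and the difference between classes was not tested. Neither held under every alternative. The day 1 ratio ran from 0.817 to 1.17 over the alternatives, with log2 values of 0.11 thinned, 0.21 as a mean over nuclei, 0.22 with libraries merged and 0.21 at resolution 0.4, and the median nucleus was at 0.483% against 0.424% in sham. The day 7 ratio ran from 1.01 to 2.02, and the median nucleus was at 0.342%. Outside the main classes the directions were mixed. In day 1, endothelial-like (1.62), fibroblast-like (4.32), GABAergic-interneuron-like (1.46, with 14.4% of the sum in 1 nucleus) and ependymal-like (1.26, with 33.9% in 1 nucleus and a median below sham) nuclei were above sham by sums and the heat-shock cluster (0.598) below, while the intervals of oligodendrocyte-precursor-like (0.985), unnamed neuronal (0.999) and mural-like (0.783) nuclei included 1. In the library labelled day 7, endothelial-like (1.18), fibroblast-like (1.76, with 40.6% of the sum in 1 nucleus) and heat-shock cluster (1.56) nuclei were above sham and the other 5 classes, from 0.458 to 0.846, below.

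Pseudogene copies of ribosomal protein genes, the 271 ps genes outside the members, were higher in free RNA than in sham in 2 libraries. Their sum was 1.86-fold (1.72 to 2.01) higher in day 1 and 1.18-fold (1.09 to 1.27) higher in the library labelled day 7, and the interval of 1.05 (0.982 to 1.13) in that labelled day 3 included 1, from shares of 0.0137% in sham, 0.0255%, 0.0162% and 0.0144%. In that labelled day 7 the members themselves were at 0.820 of sham.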

How the results depend on the processing

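No paired analysis was possible because each group is 1 library. Ratios of nuclei to free RNA kept their direction and call in 480 of 480 recomputations, though sizes moved: free RNA exceeded astrocyte-like nuclei by 1.25 to 3.64-fold in day 3 and 1.22 to 3.69-fold in day 7, and endothelial-like day 1 nuclei exceeded free RNA by 1.07 to 2.75-fold. Ratios to sham kept both in 276 of 300, with 15 weaker and 9 reversed. Log2 ratios to sham, as counted 0.30, 0.09, 0.17 (striatal-like day 1), −0.08 (striatal-like day 7), 0.17 (oligodendrocyte-like day 1), −0.20, −0.16 (astrocyte-like day 1), 0.39, 0.18 (microglia-like day 1) and −0.25, became as follows. With free droplets of 11 to 100 UMIs, free RNA was at −0.10 in day 1 and −0.091 in day 3. Thinned to 1000 UMIs, striatal-like was at 0.17 (day 1) and −0.029 (day 7), oligodendrocyte-like day 1 at 0.016, astrocyte-like at 0.11 (day 1) and 0.0099 (day 7) and microglia-like day 7 at −0.16. As means over nuclei, astrocyte-like was at 0.21 (day 1) and 0.011 (day 7). With equal free UMIs subtracted, striatal-like day 7 was at 0.034, oligodendrocyte-like day 7 at −0.020 and microglia-like day 7 at −0.092. With libraries merged, striatal-like day 7 was at −0.036, astrocyte-like day 1 at 0.22 and microglia-like day 7 at −0.092. Without members that overlap another gene, striatal-like day 7 was at 0.075, astrocyte-like day 1 at −0.13 and microglia-like day 7 at −0.14. TMM scaling gave −0.045 for striatal-like day 7, resolution 0.4 gave 0.21 for astrocyte-like day 1, and doublets kept gave 0.11 for microglia-like day 1. Chosen after seeing the data, adding the heat-shock cluster gave 0.21 for astrocyte-like day 1, and leaving out the nucleus with the most ribosomal protein UMIs gave 0.0048 for microglia-like day 1. The causes were not tested.

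The free-RNA share was 1.78%, 1.66%, 1.67% and 1.35% in droplets of 11 to 100 UMIs. Past 2-fold, members counted higher and lower were 3 and 0 (day 1), 0 and 1 (day 3), 0 and 6 (day 7) in free RNA, 1 and 0, 2 and 1, 0 and 3 in glutamatergic-like, 1 and 1, 5 and 0, 0 and 2 in striatal-like, 2 and 0, 7 and 2, 2 and 4 in oligodendrocyte-like, 1 and 3, 18 and 0, 5 and 0 in astrocyte-like, and 4 and 0, 11 and 0, 0 and 1 in microglia-like nuclei. In endothelial-like nuclei against free RNA 6 (sham), 29 (day 1), 16 (day 3) and 34 (day 7) of 79 were higher, beside 13.5, 8.63, 15.1 and 13.6% of all genes, so the excess in sham was lost. Over all genes the shares past 2-fold, higher and lower, ran over the 3 libraries from 2.25 to 2.81% and 1.06 to 1.47% in free RNA, 1.11 to 2.58% and 1.16 to 1.63% in glutamatergic-like, 1.22 to 2.61% and 0.844 to 1.63% in striatal-like, 1.95 to 2.46% and 1.56 to 3.16% in oligodendrocyte-like, 2.01 to 2.53% and 3.17 to 3.89% in astrocyte-like and 3.89 to 5.69% and 2.68 to 4.33% in microglia-like nuclei. With no minimum of UMIs, 2 of 79 members were lower in microglia-like day 7, beside 2.44% of all genes. Subtracting free RNA until no mitochondrial UMIs were left gave no value for any of the 46 ratios of nuclei, to sham or to free RNA. It left no ribosomal protein UMIs, or no UMIs at all, in every class and library. This alternative is therefore not among the recomputations counted above. Depth limits single members most in microglia-like nuclei, where 57 to 75 members had 20 UMIs.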
